A study of Homo sapiens with 8 samples.

Results

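IRF2 was silenced with the guide sg2-IRF2 in K562 cells, and these cells are set here against the untransduced cells of the same experiment, 2 libraries against 2 of the 8 in the series. The 4 libraries were chosen by their labels alone, and the differences between them use neither of the control guide's libraries. All 8 libraries entered the filter on low values, the alignment of medians and the estimate of the spread behind the calls. K562 is an established human line from a patient with chronic myeloid leukaemia, and it expresses erythroid genes. Every group, the untransduced cells included, carried dCas9-KRAB, a Cas9 that binds DNA without cutting it joined to the KRAB repressor domain, so the cells compared share the fusion protein. The sg2-IRF2 cells had been transduced with an sgRNA to IRF2 and were harvested 7 days later. The untransduced cells received no guide, so the comparison holds the effect of transduction as well as that of the guide. The other groups, also 2 libraries each, had a further IRF2 guide (sg1-IRF2) or a guide to the AAVS1 site (sgAAVS1), likewise 7 days after transduction. Total RNA was depleted of ribosomal RNA and sequenced, and separate cultures within a group, or a clonal origin of the line, are not stated in the labels. Of 14665 genes tested, 96 were called lower and 21 higher with sg2-IRF2.

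IRF2 belongs to the interferon regulatory factors, DNA-binding proteins that recognise GAAA repeats in the promoters of genes that respond to interferon. It was first described as an antagonist of IRF1, and it is also known to keep a basal level of expression of antigen presentation genes in cells that have not met interferon. In CRISPR interference, the guide brings dCas9-KRAB to the start of a gene, where the KRAB domain recruits corepressors and transcription falls without a cut in the DNA.

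The recovered reads of the 8 libraries ran from 5248359 to 6738348 over the genes of the deposited table. Levels are given as reads per library or as log2 of reads divided by the library's factor, after each library was shifted by -0.08 to 0.07 so that the medians were equal. The median difference over all tested genes was 0.01. The defining K562 transcripts (HBG1, HBG2, HBE1, HBZ, GATA1, TAL1, KLF1, TFRC and BCR) had reads in all 8 libraries. The 2 libraries of a group differed by less than counting noise in untransduced cells (chi-square per degree of freedom 0.820) and with sg2-IRF2 (0.658), and by more with sgAAVS1 (1.66). Pairs of an untransduced and an sg2-IRF2 library lay between 1.12 and 1.31, below the 1.93 to 2.11 of pairs of an untransduced and an sgAAVS1 library and the 1.91 to 1.97 of pairs of an untransduced and an sg1-IRF2 library. Between sgAAVS1 and sg1-IRF2, the libraries numbered 1 had 1.11 and those numbered 2 had 1.22, both below the sgAAVS1 replicates, while the crossed pairs had 1.54 and 1.70. Pairs of an sg1-IRF2 and an sg2-IRF2 library had 1.27 to 1.55, within the 1.11 to 1.70 of pairs of sgAAVS1 and sg1-IRF2. Untransduced libraries thus lay nearest to sg2-IRF2 ones and farther from sgAAVS1 and sg1-IRF2 ones. The sg1-IRF2 libraries lay near both sgAAVS1 and sg2-IRF2 ones. The labels name no batch, and the part of this pattern in the sgAAVS1 values was not tested. Because separate cultures are not stated, the p-values below measure only the spread between these libraries, which may be technical. The sgAAVS1 libraries enter the shared estimate of that spread. The calls went from 117 to 325 (121 higher, 204 lower) without sgAAVS1 replicate 1, to 321 (120 and 201) without sgAAVS1 replicate 2, and to 326 (121 and 205) without both.

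IRF2 itself (chr4:184387713-184474580, hg38, minus strand) had 271 and 268 reads in untransduced cells and 22 and 21 reads with sg2-IRF2. The libraries of each group were nearly equal and the groups were far apart. The group means were 5.60 ± 0.02 and 1.97 ± 0.02 on the log2 scale (SD, n = 2). The difference was -3.63 (SE 0.21), adjusted p 2.2e-09 by limma's moderated test with Benjamini-Hochberg adjustment over all tested genes, which holds for every adjusted p given here. In reads per library total, untransduced cells had 12.5 times the IRF2 level of sg2-IRF2 cells, with a 95% interval for counting error of 9.14 to 17.4. None of the 15 tested genes around IRF2 on 4q35 was called, and their differences lay between -0.18 and 0.12. PPP1R12C, the gene that holds the AAVS1 site, had 679 and 699 reads in untransduced cells and 672 and 671 with sg2-IRF2, a difference of -0.02, against 375 and 424 reads with sgAAVS1.

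Most of the change was downward. The 96 genes called lower were 0.655% of those tested and the 21 called higher were 0.143%, and 94 of the 96 and all 21 are annotated as protein coding. By size, 32 of the lower genes fell by 2-fold or more, and none of the higher genes rose that far. At an unadjusted p under 0.05, 1327 genes differed. Both sg2-IRF2 libraries lay below both untransduced ones in 2734 of the 14665 tested genes and above both in 3425. Groups that do not overlap, as given below for single genes, were therefore common. The 32 large decreases started from low levels, with a median of 186.5 reads over both untransduced libraries against 540.0 for all tested genes. The calls of 31 lower and 3 higher genes held when each of the 8 libraries was left out in turn. The count of 117 went to 41 without untransduced replicate 1, 42 without untransduced replicate 2, 47 without sg2-IRF2 replicate 1 and 53 without sg2-IRF2 replicate 2.

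**Figure D1:**
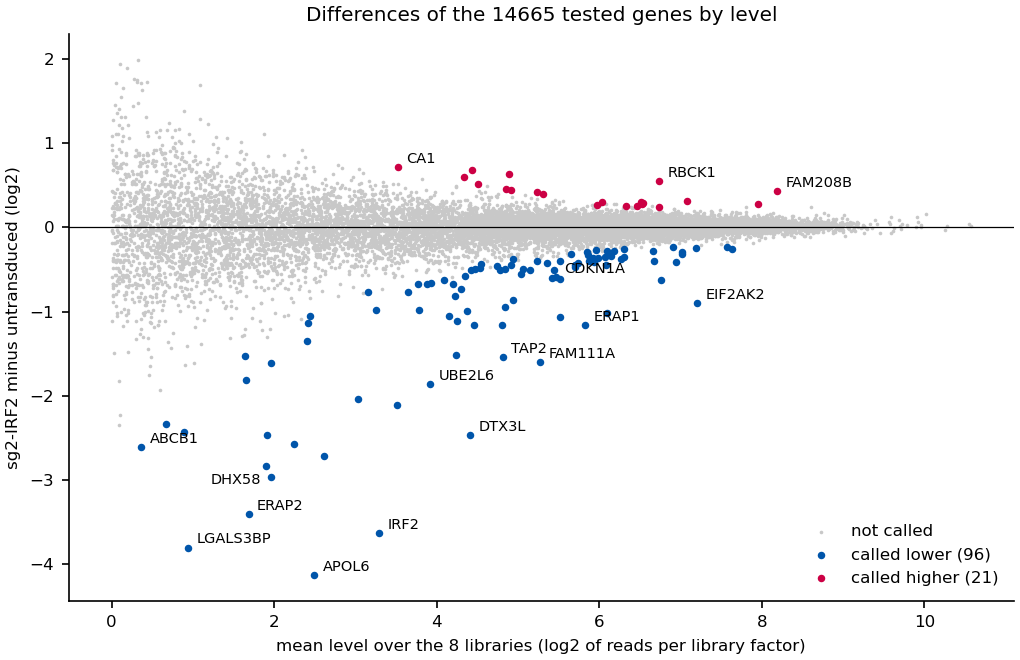
Each point is 1 of the 14665 tested genes, placed by its mean level over the 8 libraries (horizontal axis, log2 of reads per library factor) and by sg2-IRF2 minus untransduced (vertical axis, log2). The 96 genes called lower (blue) reach -4.13, while the 21 called higher (red) lie between 0.24 and 0.72.

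Several genes for the presentation of peptides by MHC class I fell. The gene lists used here and below were written with earlier results of these data known, so their counts are descriptions and not tests. Of 14 tested genes of antigen processing, 8 were lower, none higher and 6 not called, where 0.655% of all tested genes were lower, with a median difference of -0.42 against 0.01 for all genes. TAP1 and TAP2 form the transporter that carries peptides into the endoplasmic reticulum. TAP1 had 53 and 59 reads in untransduced cells and 10 and 6 with sg2-IRF2, a difference of -2.83 (SE 0.29, adjusted p 6.2e-06). TAP2 had 279 and 259 reads against 101 and 82, a difference of -1.54 (SE 0.10, adjusted p 9.8e-09). For both genes the groups did not overlap. The aminopeptidases ERAP1 and ERAP2, neighbours on chromosome 5, trim those peptides to their final length. ERAP2 had 55 and 73 reads against 7 and 5, a difference of -3.40 (SE 0.31), and ERAP1 had 464 and 485 against 221 and 197, a difference of -1.17 (SE 0.07). Every sg2-IRF2 library was below every untransduced one for both enzymes, and the decrease of ERAP2 was the larger.

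The remaining lower members were HLA-C, PSME1, PSMB10 and TAPBP. HLA-C, a class I heavy chain, had 25 and 22 reads against 3 and 7 (difference -2.34, SE 0.54, adjusted p 0.046). It is a member of a family of near-identical genes between which reads can be misassigned, and its call was lost when either untransduced library was left out (adjusted p 0.37 each) or without sg2-IRF2 replicate 1 (0.49). TAPBP encodes tapasin, which loads peptide onto class I molecules, and it fell by 0.26. PSME1, a proteasome activator subunit, fell by 0.94, and PSMB10, a catalytic subunit of the immunoproteasome, fell by 0.58. These 3 genes were chosen after their values were seen. TAPBP and PSMB10 lost their calls without any of the 4 libraries compared (adjusted p 0.072 to 0.13 and 0.14 to 0.44). The other immunoproteasome subunits, PSMB8 and PSMB9, were under the filter on low values: PSMB8 had 8 and 15 reads in untransduced cells and 0 in both sg2-IRF2 libraries, and PSMB9 had 3 and 1 against 0 and 0. They were not tested and are likewise named after their values were seen. HLA-B, another class I heavy chain under the filter, had 14 and 12 reads in untransduced cells and 2 and 4 with sg2-IRF2. B2M, the invariant light chain of class I, had 641 and 652 reads against 634 and 644, a difference of 0.00 (SE 0.07). NLRC5, a known activator of class I genes, was under the filter with 2 and 4 reads against 1 and 0.

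Some of the genes known to be induced by interferon also fell. Of 43 tested members of that list, 16 were lower, none higher and 27 not called, where 0.655% of all tested genes were lower, with a median of -0.43 and a range from -3.80 to 0.21; 9 further members had no read in any library. LGALS3BP, a secreted galectin-binding glycoprotein, had 50 and 48 reads in untransduced cells and 2 and 6 with sg2-IRF2 (difference -3.80, SE 0.47). SAMD9, a restriction factor of poxviruses, had 100 and 69 against 13 and 12 (-2.71, SE 0.25). OAS3, which makes the 2-5A messenger on sensing double-stranded RNA, had 81 and 74 against 15 and 11 (-2.57, SE 0.28). In all 3 genes the higher sg2-IRF2 library was far below the lower untransduced one, and non-overlap was a condition for choosing them. EIF2AK2 (PKR), a kinase that binds double-stranded RNA and shuts off translation, was the most abundant of the group with 1123 and 1104 reads against 594 and 582 (-0.90, SE 0.06, adjusted p 1.1e-08). C19orf66, also called SHFL, a factor that restricts viral translation, had 99 and 105 reads against 25 and 24 (-2.04, SE 0.18). ANGPTL6 lies on its opposite strand, and since the strand setting of the counting is not known, reads of the 2 genes cannot be told apart.

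The enzymes that attach ISG15 to proteins were lower, while ISG15 itself was not called. UBA7, the E1 enzyme of that pathway, had 56 and 60 reads against 12 and 9 (-2.46, SE 0.30). UBE2L6, its E2 enzyme, had 174 and 193 against 55 and 45 (-1.86, SE 0.15). ISG15, the modifier, had 62 and 87 against 59 and 67, a difference of -0.20 with an SE of 0.18 and an adjusted p of 0.82. The untransduced and sg2-IRF2 libraries of ISG15 overlapped, and those of UBA7 and UBE2L6 did not.

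The ADP-ribosyltransferases PARP9, PARP10, PARP12 and PARP14 and the ubiquitin ligase DTX3L, the partner of PARP9, were all called lower. DTX3L had 326 and 295 reads in untransduced cells and 56 and 55 with sg2-IRF2 (-2.46, SE 0.11, adjusted p 1.2e-10), the lowest p of any gene tested. PARP9 had 143 and 142 against 32 and 33 (-2.11, SE 0.17). Their spans overlap head to head on chromosome 3, DTX3L at chr3:122564238-122575203 on the plus strand and PARP9 at chr3:122527924-122564577 on the minus strand. PARP14, further along the same chromosome, had 541 and 488 reads against 278 and 227 (-1.01, SE 0.08), and PARP12 on chromosome 7 had 378 and 379 against 174 and 183 (-1.07, SE 0.07). All 4 libraries separated by group in each of these genes. PARP10 had 34 and 42 reads against 10 and 15 (-1.61, SE 0.31), with GRINA on its opposite strand.

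IFI6, PARP10, FLT3LG and ABCB1 rest on few reads. IFI6, a mitochondrial and endoplasmic reticulum protein induced by type I interferon, had 32 and 39 reads against 6 and 7 (-2.43, SE 0.44, adjusted p 0.0065). FLT3LG, the ligand of the FLT3 receptor, had 39 and 38 against 9 and 13 (-1.81, SE 0.33, adjusted p 0.0066), and 2 other genes overlap it on the same strand. ABCB1, the multidrug efflux pump, had 12 and 19 against 3 and 2 (-2.60, SE 0.50, adjusted p 0.010). In each the groups did not overlap, which the choice of these genes required, but the calls were lost when single libraries were left out. Without untransduced replicate 1 or 2 the adjusted p was 0.12 or 0.26 for IFI6, 0.11 or 0.29 for PARP10, 0.14 or 0.15 for FLT3LG and 0.077 or 0.32 for ABCB1. Without sg2-IRF2 replicate 1 it was 0.11 for IFI6, 0.21 for PARP10 and 0.15 for FLT3LG, and without sg2-IRF2 replicate 2 it was 0.12 for ABCB1.

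**Figure D2:**
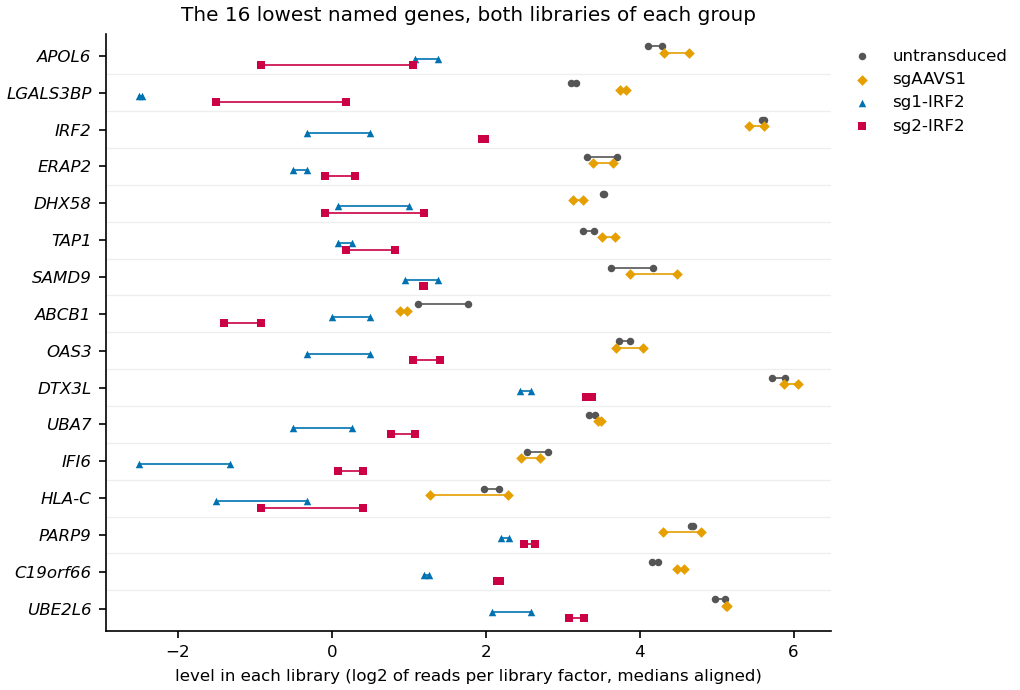
Level in each library (horizontal axis, log2 of reads per library factor, medians aligned) of the 16 named genes with the lowest difference, from APOL6 at the top to UBE2L6; each marker is 1 library and a line joins the 2 libraries of a group. In all 16 rows both sg2-IRF2 libraries lie left of both untransduced libraries, which was a condition for choosing these genes.

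Outside these lists, the apolipoprotein L and butyrophilin genes had 4 lower and no higher of 10 tested, with a median of -0.15. Over all tested genes 0.655% were lower and 0.143% higher, but this list too was written with earlier results known. APOL6 had the lowest difference of any tested gene, with 108 and 96 reads in untransduced cells and 3 and 11 with sg2-IRF2 (-4.13, SE 0.39, adjusted p 2.2e-06). APOL1, the trypanosome lytic factor of human serum, had 156 and 180 reads against 63 and 53 (-1.52, SE 0.12). BTN3A1, which presents phosphoantigens to gamma delta T cells, fell by 1.05 (SE 0.13), and its paralog BTN3A2 by 0.98 (SE 0.15); the BTN3A genes are alike enough that reads may have been split between them. The call of BTN3A2 was lost without untransduced replicate 1 (adjusted p 0.067). Of 16 tested nucleic acid sensing genes 2 were lower, and the median of the list was -0.004 against 0.01 for all tested genes. DHX58, the RIG-I-like receptor LGP2, had 64 and 64 reads against 13 and 5 (-2.97, SE 0.37), and SAMHD1, a dNTP hydrolase that restricts retroviruses, had 295 and 293 against 240 and 226 (-0.32, SE 0.07). Single libraries decided the SAMHD1 call, which rose to adjusted p 0.27 to 0.29 without any of the 4 libraries compared.

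Further lower genes were FAM111A, a protease that restricts viral replication, and IL17RC, a subunit of the IL-17 receptor and the only called gene among 19 tested NF-kB and inflammatory genes. FAM111A had 390 and 371 reads against 126 and 121 (-1.60, SE 0.08, adjusted p 3.3e-10). IL17RC had 240 and 240 against 109 and 103 (-1.16, SE 0.11). In both genes the libraries of a group lay close together and the groups apart. GSDMD, the pore-forming protein of pyroptosis, had 55 and 68 reads against 31 and 44, a difference of -0.71 (SE 0.22) with an adjusted p of 0.23. It was called in 1 of 20 alternative fits of this comparison. With sg1-IRF2 against sgAAVS1, GSDMD was called lower (-0.999, adjusted p 0.038), with 30 and 24 reads against 46 and 60. None of the 14 tested genes of pyroptosis and the caspases was called with sg2-IRF2, and GSDMD was the 1 called lower with sg1-IRF2.

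Of the 96 lower genes, 59 belonged to no list. Those described here were chosen after their values were seen. IL15RA, the receptor chain that binds and presents IL-15, had 200 and 193 reads in untransduced cells and 90 and 83 with sg2-IRF2 (-1.17, SE 0.12, adjusted p 7.7e-06). GPR158, an orphan G protein-coupled receptor, had 147 and 153 reads against 80 and 59 (-1.11, SE 0.14). HELZ2, a helicase induced by interferon, had 769 and 806 reads against 523 and 483 (-0.63, SE 0.05). The groups did not overlap in any of these, and the differences with sg1-IRF2 against sgAAVS1 were -1.04, -1.31 and -0.56. RCN1, a calcium-binding protein of the endoplasmic reticulum, fell by 0.99, and MXRA8, a receptor of alphaviruses, by 0.55. These 5 genes were called without each library in turn and with sg1-IRF2. HFE2, or hemojuvelin, a regulator of iron balance, had 27 and 28 reads against 11 and 8 (-1.53, SE 0.30, adjusted p 0.013), and it was not called with sg1-IRF2 (-0.59). Its call was lost without any of the 4 libraries compared (adjusted p 0.050 to 0.21). IGF1, the insulin-like growth factor, had 871 and 826 reads against 670 and 587 (-0.42, SE 0.08), with a difference of 0.12 with sg1-IRF2 and -0.48 with sgAAVS1 against untransduced cells. TRAF5, an adaptor of TNF receptors, fell by 0.40 with sg2-IRF2 and 0.44 with sg1-IRF2. The calls of IGF1 and TRAF5 were also lost without any of those libraries (adjusted p 0.071 to 0.27 and 0.071 to 0.34).

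The regulators upstream of these genes were not called. Among 8 tested interferon regulatory factors and IRF2 partners other than IRF2, none passed the test and the median difference was 0.00. IRF1, the activator that binds the same sequences as IRF2, had 162 and 164 reads in untransduced cells and 148 and 140 with sg2-IRF2 (-0.16, SE 0.09, adjusted p 0.66), with C5orf56 on its opposite strand. IRF9, the DNA-binding subunit of ISGF3, had a difference of 0.08 (SE 0.07). Among 22 tested interferon receptor and JAK-STAT genes none was called, and the differences lay between -0.07 and 0.28. STAT2 had 961 and 943 reads against 1040 and 951 (0.08, SE 0.05).

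**Figure D3:**
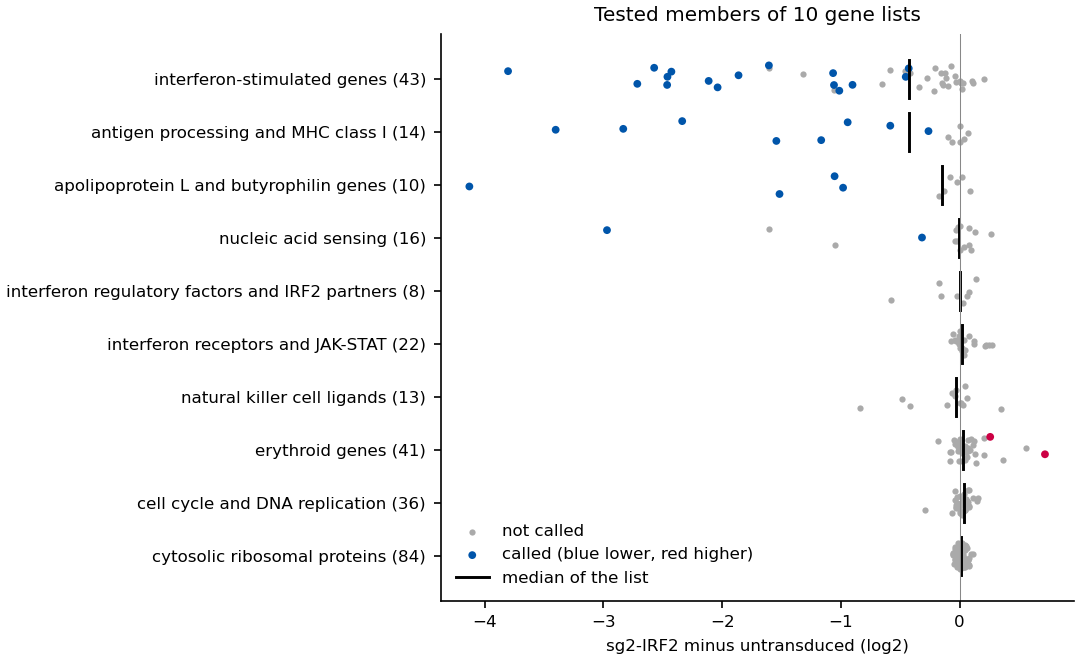
Differences between sg2-IRF2 and untransduced cells (horizontal axis, log2) for the tested members of 10 lists, with the number tested after each name; points are genes, scattered vertically only to separate them, and the black bar is the list's median. The lists of interferon-stimulated and antigen processing genes have medians of -0.43 and -0.42, and the other 8 medians lie between -0.15 and 0.03.

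The promoters of the lower genes were read from RefSeq (GRCh38.p14), from 250 bases before to 50 bases after the start. The motif GAAANNGAAA, a pair of the GAAA cores that interferon regulatory factors contact, was searched on both strands. It occurred in 281 of the 10314 promoters matched to tested genes, or 2.72%. Of the genes called lower it occurred in 20 of 77 with a matched promoter (26.0%), and of those lower by 2-fold or more in 14 of 25 (56.0%). For comparison, TTCNNNGAA, the palindromic gamma-activated sequence that STAT proteins bind, occurred in 646 promoters of all tested genes (6.26%) in 7 of the 77 (9.09%) and in 4 of the 25. Matches of the 2 motifs shared bases in 6 promoters of tested genes and in none of those called lower. A match is a description of the letters and not a bound site, and no binding was measured. The windows below, on the strand of the gene and 5′ to 3′, are shown as examples from antigen presentation, interferon-induced and PARP genes, and genes with larger decreases than some of them also held a match; the capitals mark GAAANNGAAA or its reverse complement, and most windows are cut to 30 bases.
LGALS3BP, chr17:78979962-78979991, minus strand: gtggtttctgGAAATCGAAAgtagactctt
TAP1, chr6:32853816-32853845, minus strand, with 2 overlapping matches: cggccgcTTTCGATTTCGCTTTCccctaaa
SAMD9, chr7:93118086-93118135, minus strand: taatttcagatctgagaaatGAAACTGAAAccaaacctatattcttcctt
OAS3, chr12:112938321-112938350, plus strand, with 1 of its 2 matches: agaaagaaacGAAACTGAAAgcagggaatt
IFI6, chr1:27672256-27672368, minus strand, with 3 matches: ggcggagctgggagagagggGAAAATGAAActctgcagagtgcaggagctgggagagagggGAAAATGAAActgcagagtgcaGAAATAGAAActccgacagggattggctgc
C19orf66, chr19:10086264-10086293, plus strand: cccctgaatcGAAAGCGAAAcaggggccgg
TAP2, chr6:32838778-32838807, minus strand: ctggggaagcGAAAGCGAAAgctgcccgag
PARP14, chr3:122680800-122680829, plus strand: tccaggaaacGAAAGCGAAAgagtcaaagt

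In these windows C19orf66, TAP2 and PARP14 carry the same 10 letters, and OAS3 and SAMD9 share another version. Other lower genes whose promoters held a match were DTX3L, FLT3LG, FAM111A, TRIM34, ERAP1, PARP12, PSME1, EIF2AK2, SYNJ2BP, PSMB10, NMI and TAPBP.

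The same knockdown was measured with sg1-IRF2 against sgAAVS1, 4 libraries that do not enter the sg2-IRF2 differences. Both comparisons came from 1 fit and share each gene's estimate of the spread, so their calls are not fully independent. There 82 genes were lower (0.559%) and 34 higher (0.232%). Of the 96 genes lower with sg2-IRF2, 50 were also called lower with sg1-IRF2, which is 52.1% of the first list and 61.0% of the second, and none was called in the opposite direction. In all, 93 of the 96 had a negative difference with sg1-IRF2, as had 7090 of the 14665 tested genes. Across these 96 genes the 2 differences correlated at 0.92, against 0.28 across all tested genes, as a description of libraries that share no sample. The 96 were chosen by their sg2-IRF2 result and include IRF2 itself. Such a choice widens the range of values, so the 2 correlations cannot be compared directly. All 32 genes lower by 2-fold or more were negative with sg1-IRF2, and 27 of them were called there.

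With sg1-IRF2, IRF2 itself had 4 and 8 reads, against 196 and 291 with sgAAVS1, a difference of -5.43. Of the 50 genes called lower in both comparisons, 36 had the larger decrease with sg1-IRF2 and 14 with sg2-IRF2. The difference between the 2 effects was tested in the same fit, and 19 genes passed (0.13% of those tested). Among the 50 these were IRF2 (1.80, adjusted p 0.0078), DTX3L (0.98, 0.0078) and TAP2 (0.85, 0.0083), all with the smaller decrease in sg2-IRF2 cells. The guides were set against different controls, so the difference of the effects alone does not separate guide from control. Between the controls, sgAAVS1 minus untransduced was -0.08 for IRF2, 0.16 for DTX3L and 0.40 for TAP2. The mean levels with sg2-IRF2 and sg1-IRF2 were 1.97 and 0.09 for IRF2, 3.34 and 2.52 for DTX3L, and 4.05 and 3.60 for TAP2. A direct difference between the guides was not tested. APOL6 and DHX58 had the larger decrease with sg2-IRF2 by value (-4.13 and -2.97 against -3.25 and -2.65), and neither difference passed the test.

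The 50 shared genes and the 46 not called with sg1-IRF2 differed in other ways. The shared ones had a median of -1.06 with sg2-IRF2 and the others a median of -0.46. The GAAANNGAAA motif occurred in 20 of 41 matched promoters of shared genes (48.8%) and in 0 of 36 of the others. When each of the 8 libraries was left out in turn, 29 of the 50 and 2 of the 46 kept their call, those 2 being CDKN1A and the long noncoding RNA RP1-140K8.5. ABCB1 was the largest of the 46, with a difference of -0.68 with sg1-IRF2 that did not pass the test (adjusted p 0.99). With sg1-IRF2 the medians were -1.26 for the 50 and -0.20 for the 46, a gap that follows from dividing the genes by their sg1-IRF2 call.

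**Figure D4:**
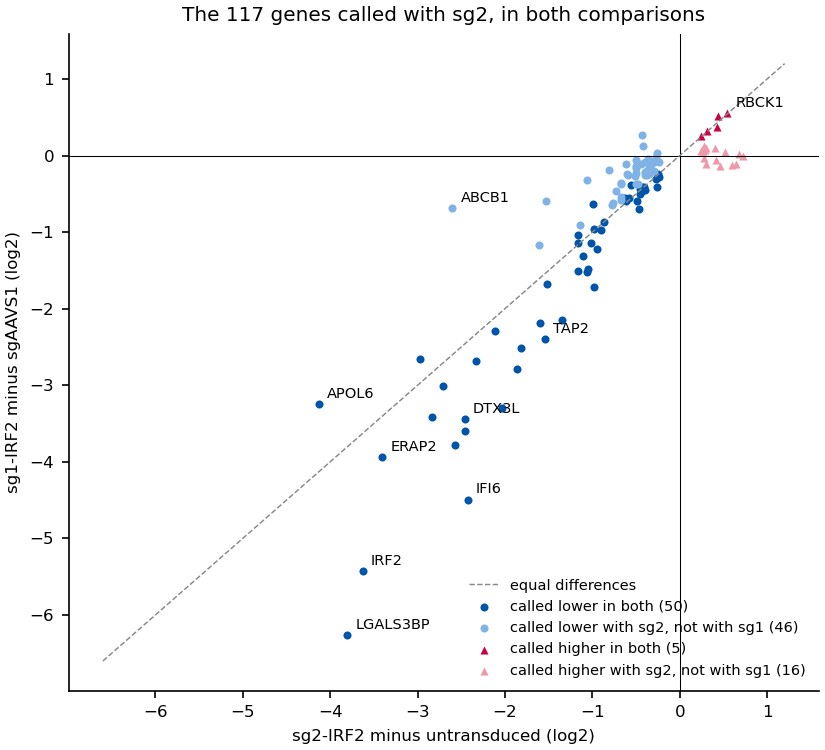
The 117 genes called with sg2-IRF2, placed by sg2-IRF2 minus untransduced (horizontal axis, log2) and sg1-IRF2 minus sgAAVS1 (vertical axis, log2); the dashed line marks equal differences. Of the 50 genes called lower in both (dark blue), 36 lie below the line, IRF2 and LGALS3BP among them, and the 16 genes called higher with sg2-IRF2 but not with sg1-IRF2 (pale red) lie between -0.13 and 0.12 on the vertical axis.

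Among the genes called higher, 2 kinds are described here by their levels in the other groups, and not all 21 were sorted this way. In the first, both IRF2 guides were above both control groups. RBCK1, a subunit of the linear ubiquitin chain complex, had 472 and 483 reads in untransduced cells and 720 and 656 with sg2-IRF2 (0.55, SE 0.05, adjusted p 4.2e-06), and 0.55 with sg1-IRF2 against sgAAVS1. FAM208B, also called TASOR2 and a paralog of a HUSH complex subunit, had 1352 and 1352 reads against 1847 and 1750 (0.43, SE 0.04, adjusted p 6.8e-06), and 0.37 with sg1-IRF2. ZNF850, ADAMTS6 and CXorf38 were the other 3 of the 5 genes called higher in both comparisons (23.8% of 21 and 14.7% of 34). The differences of these 5 genes lay between 0.25 and 0.55 with either guide. RBCK1 and FAM208B were called in each of the 8 fits that left out 1 library, and ZNF850 was not (adjusted p 0.12 without untransduced replicate 1 and 0.087 without sg2-IRF2 replicate 2). ADAMTS6 and CXorf38 lost their calls without any of the 4 libraries compared (adjusted p 0.10 to 0.67 and 0.17 to 0.49) and without either sg1-IRF2 library (0.074 and 0.076, and 0.058 and 0.060).

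Of the 5, RBCK1 and FAM208B had a GAAANNGAAA match in the promoter, the only 2 among 16 matched promoters of genes called higher. The window of FAM208B is shown because this gene rose while carrying the letters found in lower genes.
FAM208B, chr10:5684759-5684808, plus strand: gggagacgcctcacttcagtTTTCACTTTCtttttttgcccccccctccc

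In the second kind, sgAAVS1 cells were also above untransduced cells. The libraries of those groups lay far apart over all genes, as given above. TCN1, the vitamin B12 carrier haptocorrin, had 104 and 111 reads in untransduced cells, 178 and 153 with sg2-IRF2, 168 and 205 with sg1-IRF2 and 167 and 230 with sgAAVS1. Its differences from untransduced cells were 0.64 (SE 0.09, adjusted p 0.00061) with sg2-IRF2 and 0.96 with sgAAVS1. The untransduced libraries were the low ones and the 3 transduced groups lay together. CA1, carbonic anhydrase of red cells, had 42 and 35 reads against 57 and 68 with sg2-IRF2 and 63 and 96 with sgAAVS1, differences of 0.72 (SE 0.17, adjusted p 0.048) and 1.11. The lowest libraries were again the untransduced ones. IL16 had 0.60 and 0.68, F2RL3 0.46 and 0.66, MS4A4A 0.40 and 0.36, and ARHGAP9 0.52 and 0.35, in the same order.

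The sgAAVS1 and sg2-IRF2 differences share the untransduced libraries, so their likeness is not independent evidence. In all, sgAAVS1 against untransduced cells had 302 genes higher (2.06%) and 346 lower (2.36%). With sg1-IRF2 against sgAAVS1 these 6 genes lay between -0.13 and 0.10 and none passed. The call of TCN1 held without each library in turn. The calls of CA1, IL16, F2RL3 and ARHGAP9 were lost without any of the 4 libraries compared, with adjusted p of up to 0.66, 0.38, 0.50 and 0.28, and that of CA1 also without either sg1-IRF2 library (0.074 and 0.076). MS4A4A lost its call without each of the 4 but untransduced replicate 1 (up to 0.35). STARD5 lies on the opposite strand of IL16, and MARS on that of ARHGAP9.

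**Figure D5:**
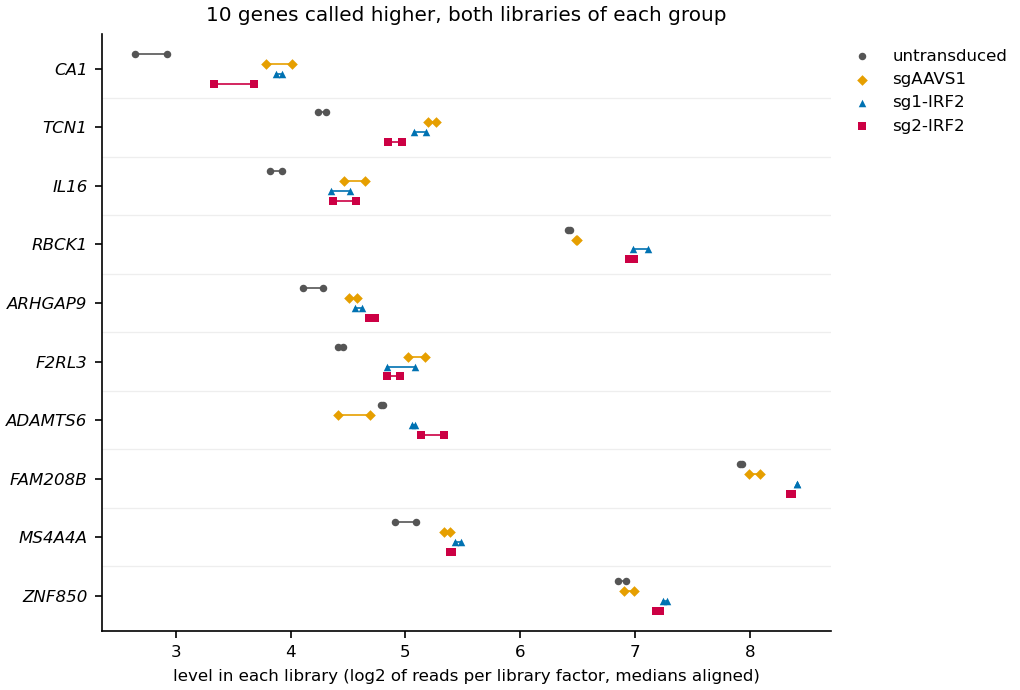
Level in each library (horizontal axis, log2 of reads per library factor, medians aligned) of 10 of the genes with the highest difference; each marker is 1 library and a line joins the 2 libraries of a group. In RBCK1, ADAMTS6, FAM208B and ZNF850 the libraries of both IRF2 guides lie right of all untransduced and sgAAVS1 libraries, and in the other 6 rows the sgAAVS1 libraries also lie right of the untransduced ones. That both sg2-IRF2 libraries lie right of both untransduced ones was a condition for choosing these genes.

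Some smaller decreases had the same feature. CDKN1A, the cell cycle inhibitor p21, had 320 and 318 reads in untransduced cells, 213 and 204 with sg2-IRF2 and 204 and 274 with sgAAVS1. Its differences from untransduced cells were -0.59 (SE 0.07, adjusted p 5.4e-05) and -0.34. PHLDA1 and ATF3, both immediate early genes and the latter also a stress-response factor, fell by 0.40 (SE 0.06) and 0.33 (SE 0.06) with sg2-IRF2 and had -0.33 and -0.35 with sgAAVS1. In these 3 genes the untransduced libraries were the high ones. ITGAM, an integrin of myeloid cells, had -0.43 with sg2-IRF2 and -0.42 with sgAAVS1. SLC30A1, a zinc exporter, had -0.24 and -0.22, and -0.28 with sg1-IRF2 against sgAAVS1. It was the only called gene of 8 tested metallothioneins and metal response genes, whose median was -0.28. With sg1-IRF2 5 of the 8 were lower, with a median of -0.58. Over all tested genes 0.655% were lower with sg2-IRF2 and 0.559% with sg1-IRF2. The metallothioneins MT1G and MT1E, named after their values were seen, had 47 and 52 reads against 22 and 18 (-1.29, SE 0.51, adjusted p 0.41) and 14 and 19 against 9 and 7 (-1.02, SE 0.52, adjusted p 0.59). In both the groups did not overlap, which was so in this direction for 2734 of the 14665 tested genes. ITGAM and SLC30A1 lost their calls without any of the 4 libraries compared (adjusted p 0.27 to 0.34 for ITGAM and 0.066 to 0.64 for SLC30A1). Both also lost them without either sg1-IRF2 library (0.073 each for ITGAM, 0.063 and 0.067 for SLC30A1). CDKN1A kept its call each time, ATF3 lost it without any of the 4 libraries compared (0.067 to 0.26), and PHLDA1 lost it without either untransduced library (0.067 and 0.063) or sg2-IRF2 replicate 1 (0.065).

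Zinc finger genes, grouped after their values were seen, were frequent among the small decreases. Of 429 tested protein-coding ZNF genes, 16 were lower and 1 higher, a share of lower genes above the 0.655% of all tested genes. The called ones lay mostly in 2 places. Of the 77 on chromosome 19 from 52 Mb to the end, 11 were lower with sg2-IRF2, with a median of -0.18. Of the 7 at the end of the long arm of chromosome 12, 3 were lower (ZNF26, ZNF891 and ZNF10), with a median of -0.45. The same genes had medians of -0.13 and -0.37 with sg1-IRF2 against sgAAVS1, where 6 of the 77 and 2 of the 7 were lower and 1 of the 77 higher. Of the 131 on chromosome 19 below 52 Mb, 1 was lower and 1 higher (ZNF529 and ZNF850), with a median of -0.12 and 100 of the 131 negative, against a median of -0.04 with sg1-IRF2, and of 214 elsewhere 1 was lower (ZNF200), with a median of -0.01. Genes of these families have similar sequences, and reads may have been split between them. The smaller decreases in this set ranged from ZNF329, with 141 and 142 reads against 94 and 67 (-0.81, SE 0.13), to ZNF529 (-0.29). None of the 16 kept its call when each of the 8 libraries was left out in turn.

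The programmes that mark K562 growth and identity showed few calls. Of 41 tested erythroid genes, 2 were higher, CA1 and ALAS2, the first enzyme of haem synthesis in red cells (0.26, SE 0.06, adjusted p 0.042). The median of the list was 0.03, and 0.143% of all tested genes were higher. ALAS2 had 0.29 with sgAAVS1 and lost its call without any of the 4 libraries compared (adjusted p 0.15 to 0.54) or either sg1-IRF2 library (0.073 each). Of 8 tested megakaryocyte genes, ITGA2B, a platelet integrin, was higher (0.28, SE 0.06, adjusted p 0.027), a call lost without any of the 4 libraries compared (0.093 to 0.52). None of 36 cell cycle and replication genes, 84 cytosolic ribosomal protein genes, 62 histone genes, 13 mitochondrially encoded genes, 29 genes of cholesterol and fatty acid synthesis, 32 of hypoxia and glycolysis, 14 of heat shock or 16 of the KRAB corepressor and HUSH complex was called. Alternatives gained calls in these lists for VEGFA, a hypoxia-induced growth factor with 2565 and 2388 reads against 2764 and 2712 (0.17, SE 0.06, adjusted p 0.38), and for the histone variant gene H2AFY (0.13). VEGFA was called without sgAAVS1 replicate 1 (adjusted p 0.022), sgAAVS1 replicate 2 (0.022) or both (0.021), and with only the groups compared (0.0062), as was H2AFY (0.044). MKI67 had 4175 and 3940 reads against 4294 and 4042 (0.06, SE 0.05), and CHD4 had 2820 and 2847 against 2919 and 2801 (0.03, SE 0.05). None of 13 tested ligands of natural killer cells was called, of which BAG6 had a difference of 0.06 and NCR3LG1 0.00.

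Markers of other cell types were near equal in both groups. The summed level of the myeloid list was 599.6 and 588.1 reads per 1e6 library reads in untransduced cells and 585.0 and 584.2 with sg2-IRF2, with ITGAM the only called gene of 12 tested and 4 members without a read in any library. The lymphoid list had 4 tested genes and no call, with 146.8 and 142.9 against 142.7 and 150.3 reads per 1e6 and 6 members at 0. The list of adherent epithelial and mesenchymal genes had 906.9 and 918.3 against 883.0 and 906.1, with 7 members at 0 and COL1A2 the only called gene of 9 tested. COL1A2 had 81 and 121 reads against 61 and 54 (-0.77, SE 0.18, adjusted p 0.045), and its adjusted p rose to 0.70 without untransduced replicate 2, 0.225 without sg2-IRF2 replicate 1 and 0.39 without sg2-IRF2 replicate 2. In bulk RNA, fewer cells that express a gene and less of its RNA per cell cannot be told apart.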

How the data were processed

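Processed values of 8 RNA-seq libraries were used, 2 in each of 4 groups taken from the labels. Per the submitters' processing notes, cutadapt and Bowtie2 were used with the build hg38; the counting tool and its strand setting, duplicate handling, annotation and tool versions were not given in the sources used here. Values were deposited by the authors on a log2 scale, as reads over a factor that is constant within a library, and a gene with no read stands at the value of 0.9 read. Whole reads were recovered from them (tolerance 0.01 read, 100% of values in each library) and used for depth, counting intervals and 2 alternatives. Intervals cover counting error only.

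Of 35805 listed genes, 14665 had a mean log2 of 0 or more across all 8 libraries and were tested, with library medians aligned. Of these, 98.4% were matched to GENCODE release 29, and 12.5% had an exonic partner on the opposite strand. Group means were fitted to all 8 libraries with limma 3.58.1 in R 4.3.3 (mean-variance trend, residual degrees of freedom 4, prior 14.9), with Benjamini-Hochberg adjustment over all tested genes and calls at adjusted p under 0.05. The fit was tested on simulated data. Python 3.11.15 handled tables and plots.

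Named genes were IRF2, a fixed set of interferon and antigen presentation genes, and the 20 lowest and 12 highest called genes with at least 20 reads whose groups did not overlap. From each gene list up to 4 called members by lowest p were named, or 2 abundant ones where none was called, and up to 8 genes of the difference between guides. A few genes under this rule are not reported here. Members, lists and rules were chosen with earlier results of these data known.

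Alternatives changed the alignment, filter, added reads, variance model, libraries and replicate block. The fit with the sgAAVS1 libraries left out together was chosen after seeing the data.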

Additional observations from a re-analysis of the deposited data

Results flagged for a closer look

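For 19 genes the change with sg2-IRF2 against untransduced cells differed from the change with sg1-IRF2 against sgAAVS1, by limma's test of the difference (adjusted p under 0.05). The value given is the first change minus the second, on the log2 scale. The guides were set against different controls, so this value alone does not separate guide from control.

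In 13 of them sg2-IRF2 did not differ by the test from untransduced cells, and the sgAAVS1 libraries were lower than both the untransduced and the sg1-IRF2 ones. These were THBD at -5.63, a thrombin receptor with 36 and 45 reads in untransduced cells, 28 and 23 with sg2-IRF2, 25 and 34 with sg1-IRF2 and 0 in both sgAAVS1 libraries, SNCG at -2.33 and RAB11FIP5 at -2.01. Smaller values were found for DBNDD2 (-1.51), SYS1-DBNDD2 (-1.35, sharing exons with DBNDD2), PNCK (-0.93), ZNF30 (-0.92), ALDH1A1 (-0.85) and ZNF584 (-0.83). The last of this kind were PPP1R12C (-0.80), the host of the AAVS1 site, SNX33 (-0.76, with IMP3 on its opposite strand), ABHD5 (-0.50) and TGM2 (-0.39).

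IRF2 (1.80), DTX3L (0.98) and TAP2 (0.85) fell in both comparisons and by less with sg2-IRF2. MT1X, a metallothionein, had 1.28: 158 and 154 reads in untransduced cells against 123 and 108 with sg2-IRF2, and 84 and 123 with sgAAVS1 against 27 and 38 with sg1-IRF2. MT1X also did not differ by the test with sg2-IRF2, but its sg1-IRF2 libraries were below the sgAAVS1 ones. TCN1 (0.75) and DHRS2 (0.41) rose with sg2-IRF2 against untransduced cells and did not differ by the test with sg1-IRF2 against sgAAVS1.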

How the results depend on the processing

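Calls with sg2-IRF2 against untransduced cells (21 higher and 96 lower, 117 in all) became 194 without aligned medians (13 higher, 181 lower), 399 with only the groups compared (159 and 240), 272 with array weights (89 and 183), 26 without the mean-variance trend (3 and 23), 60 with no filter (8 and 52), 32 at a 2-fold minimum and 326 without both sgAAVS1 libraries (121 and 205). Leaving out 1 library gave 41 to 325. The replicate block gave 133 (31 higher, 102 lower); replicate numbers in the labels are not said to mark a batch, and over the tested genes the replicate differences of untransduced and sg2-IRF2 cells correlated at -0.01. The block changed no call of a named gene.

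For sg1-IRF2 against sgAAVS1, 116 calls became 49 without the trend and 48 at 2-fold, and 79 to 211 without single libraries. The split was 48 higher to 73 lower without alignment and 122 to 89 without sgAAVS1 replicate 2. For the difference of the effects, 19 (6 above 0 and 13 below) became 30 without alignment (4 and 26), 6 without the trend, 8 with no filter and 7 at 2-fold, and 9 to 120 without single libraries. For sgAAVS1 against untransduced cells, 648 became 299 with only the groups compared, 10 without the trend, 247 with no filter and 22 at 2-fold, and 127 to 1335 without single libraries; without alignment the split was 435 higher to 262 lower. The cause of these shifts was not tested.

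No value changed sign while called. IRF2 lay between -3.68 and -3.51 in every alternative. Of 48 named genes called, 14 stayed called in every alternative (ERAP2, TAP1, DTX3L, PARP9, C19orf66, UBE2L6, FAM111A, TAP2, EIF2AK2, PARP12, PARP14, ERAP1, APOL1 and CDKN1A) and 25 when the fit without the trend is set aside. Depth limits low genes: the standard error was 0.50 for ABCB1 and 0.06 for EIF2AK2.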
